A study of Mus musculus with 22 samples.

Results

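Cell cycle and DNA replication genes were examined in sorted lung macrophages and monocytes of mice with an epithelial injury. The set held 44 genes, listed by name for their known roles in copying DNA and dividing the cell, and all 44 were found among the 31116 genes present in both count tables (31134 genes for macrophages and 55421 for monocytes). They were grouped by role into replication licensing (9 genes), DNA synthesis and nucleotide supply (5 genes), cyclins with their kinase and transcription factors (10 genes), mitotic kinases, checkpoint and anaphase genes (8 genes), spindle, kinetochore and cytokinesis genes (8 genes), and chromosome structure and microtubule turnover (4 genes). All 44 passed the filter on low counts in each cell type.

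The mice were C57BL/6 and carried the SP-CI73T mutant, a form of surfactant protein C with isoleucine replaced by threonine, which is made by alveolar type 2 cells of the lung. Tamoxifen, given by gavage at 8 to 12 weeks of age, activated a Flp-O recombinase linked to an estrogen receptor domain (knocked into Rosa26), which removed a neomycin cassette and raised the mutant protein. Lungs were taken at 3 d, when injury begins, and at 14 d, when it peaks, after which lavaged, perfused and collagenase-digested tissue was sorted. The labels call the control mice untreated SP-CI73T mutants. The study's results describe oil treated mutants, and its methods also allow tamoxifen treated mice without Flp-O. SigF+CD11b- alveolar macrophages came from 4 control samples, 3 samples at 3 d and 3 at 14 d, and Ly6Chi monocytes from 4 samples of each group. Nothing in the labels says whether a sample is 1 mouse or a pool, so p-values measure the spread between these samples.

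A cell that divides first loads the MCM helicase onto replication origins (licensing), then fires the origins and copies its DNA in S phase, and then separates the copies in mitosis. The first steps are switched on largely by E2F transcription factors, and the genes of G2 and mitosis later by complexes that hold B-MYB (Mybl2) and FOXM1. Tissue-resident alveolar macrophages are known to keep their numbers in part by dividing in place, whereas Ly6Chi monocytes arise from dividing precursors in the bone marrow and enter the lung mostly after their last division.

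Letters known from the control of cell cycle genes can be read in the promoters. Shown here are 8 of them, 4 from mitotic genes, 2 from licensing genes, and those of Pcna and Mybl2, which recur in the comparisons that follow. Each line is the 150 bases before the start of the gene, 5′ to 3′ on the coding strand, from RefSeq on GRCm38.p6. Capitals mark matches, on either strand, to the cell cycle homology region (CHR, TTTGAA), the CCAAT box (CCAAT) and an E2F motif (TTCCCGC, with the spellings TTCGCGC and also TTGCCGC and lastly TTGGCGC).
Cdc20: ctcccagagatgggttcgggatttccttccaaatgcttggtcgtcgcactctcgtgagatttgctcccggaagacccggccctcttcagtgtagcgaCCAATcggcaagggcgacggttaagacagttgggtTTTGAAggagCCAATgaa
Ccnb2: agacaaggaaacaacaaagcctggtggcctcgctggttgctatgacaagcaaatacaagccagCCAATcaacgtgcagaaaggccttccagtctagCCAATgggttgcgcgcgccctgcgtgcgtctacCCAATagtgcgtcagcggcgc
Cdk1: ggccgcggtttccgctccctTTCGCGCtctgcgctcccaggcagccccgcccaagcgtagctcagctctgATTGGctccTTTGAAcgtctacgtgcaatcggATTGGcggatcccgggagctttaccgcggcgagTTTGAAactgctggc
Plk1: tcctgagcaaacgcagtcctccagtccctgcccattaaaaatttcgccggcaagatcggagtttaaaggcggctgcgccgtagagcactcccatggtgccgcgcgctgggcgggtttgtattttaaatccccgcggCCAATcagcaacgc
Mcm6: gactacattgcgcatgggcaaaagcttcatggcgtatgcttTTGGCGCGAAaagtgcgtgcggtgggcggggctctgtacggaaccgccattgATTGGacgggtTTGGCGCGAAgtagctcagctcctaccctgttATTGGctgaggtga
Mcm5: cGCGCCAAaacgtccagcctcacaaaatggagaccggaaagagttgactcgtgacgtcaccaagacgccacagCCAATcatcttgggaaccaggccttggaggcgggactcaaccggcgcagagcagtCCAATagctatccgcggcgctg
Pcna: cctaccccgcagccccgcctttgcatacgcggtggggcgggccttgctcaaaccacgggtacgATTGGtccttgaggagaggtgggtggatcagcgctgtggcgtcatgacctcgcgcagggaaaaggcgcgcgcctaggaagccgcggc
Mybl2: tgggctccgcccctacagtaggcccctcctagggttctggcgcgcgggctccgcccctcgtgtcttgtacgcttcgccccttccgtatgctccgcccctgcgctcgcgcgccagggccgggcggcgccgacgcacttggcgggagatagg
The stretches lie at chr4:118437344-118437493 (Cdc20, minus strand), chr9:70421555-70421704 (Ccnb2, minus), chr10:69352913-69353062 (Cdk1, minus), chr7:122159285-122159434 (Plk1, plus), chr1:128359706-128359855 (Mcm6, minus), chr8:75109359-75109508 (Mcm5, plus), chr2:132253181-132253330 (Pcna, minus) and chr2:163054485-163054634 (Mybl2, plus).

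Windows of 300 bases, from 250 before to 50 after the start, were at hand for 35 of the 44 genes. Ccna2, Ccne2, Foxm1, Aurkb, Kif20a, Tpx2, Stmn1, Gins2 and Mcm4 were not matched. The CHR letters occurred in 16 of the 35 (45.7%) against 18.1% of the 27025 genes with a window, the CCAAT box in 26 (74.3%) against 37.9%, and an E2F motif in 12 (34.3%) against 9.69%. The E2F letters were in 6 of 7 licensing windows and in 0 of 7 windows of mitotic kinase, checkpoint and anaphase genes, of which 5 had the CHR letters. Matches to different motifs overlap in 3 of the genes. These are counts of letters and not of bound sites. The windows of Mybl2 and E2f1 held none of the 3 motifs in these spellings. The printed Mybl2 stretch has TTGGCGG, which differs from a searched spelling in its last letter only. For E2f1 the 150 bases before the RefSeq start (chr2:154569427-154569576) lie inside the gene as annotated (chr2:154559407-154569892). Those of Cdc6 and Mcm7 lie inside their genes too. The counts therefore do not show that a gene lacks such sites.

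Depth differed between the groups. Counts on genes were 14437070 to 17074863 in control macrophages, 10692871 to 15410838 at 3 d and 4610720 to 6838893 at 14 d, and 15451460 to 28789639 in monocytes. A floor of 3 counts corresponded to at most 0.507 CPM (counts per 1000000, scaled by TMM) in macrophages and 0.161 CPM in monocytes, which covers counting error only. More genes had a count at 14 d in macrophages (27699 to 30627 against 21951 to 27616 in controls) and at 3 d in monocytes (40119 to 41134 against 24775 to 30865). Xist counts were 8 to 32 in macrophages and 1 to 6 in monocytes at 14 d and 552 to 4444 in every other library, with Y chromosome genes the other way round, so the 14 d change and the sex of the mice cannot be told apart. The summed alveolar macrophage markers were 22744 to 55359 CPM in the macrophages and 4429 to 21328 CPM in the monocytes, highest in monocytes at 14 d. Chil3 led this list in every group of both cell types and does not separate them. The summed Ly6Chi monocyte markers were 9032 to 15364 CPM in the monocytes against 37.8 to 432 CPM in the macrophages.

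Control macrophages held more of most of these transcripts than control monocytes. Of the 44 genes, 41 were higher in control macrophages, where 24.5% of the 26692 genes tested were higher, and 1 was lower, where 19.7% were lower. The median difference was 2.18 on the log2 scale (4 samples each, edgeR's quasi-likelihood test), and in 39 genes every macrophage library lay above every monocyte library. How many of all genes lay apart in this way was not counted. Each cell type has its own count table, so cell type and any difference in how the tables were made cannot be told apart in this comparison. Nor can, in bulk RNA here and later, the number of cells with a transcript and its amount per cell.

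The CPM set side by side between control macrophages and control monocytes use 1 scaling over all 22 libraries, and all other CPM the scaling within a cell type. Ccna2, the cyclin of S phase and early mitosis, had the largest difference. It was at 26.2, 26.3, 30.2 and 32.7 CPM in the 4 control macrophage libraries and at 0.275, 0.732, 3.04 and 4.57 CPM in the 4 control monocyte libraries. The groups did not overlap, although the monocyte libraries differed widely among themselves. The difference was 3.72 (SE 0.60, adjusted p = 3.43e-05). Mki67, a protein that coats mitotic chromosomes and marks cycling cells, was at 51.3 ± 12.2 (SD, n = 4) against 8.43 ± 5.04 CPM, a difference of 2.60 (SE 0.36, adjusted p = 2.63e-06). Top2a, the topoisomerase that untangles copied DNA, differed by 3.12 and Tpx2, a spindle assembly factor, by 3.51.

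By role, the median log2 difference was 2.86 for spindle genes (8 of 8 higher), 2.61 for cyclins and factors (10 of 10), 2.44 for chromosome structure and microtubule turnover (3 higher and 1 lower of 4), 2.06 for mitotic kinases, checkpoint and anaphase genes (6 of 8), 1.49 for licensing genes (9 of 9) and 1.43 for DNA synthesis genes (5 of 5). The smallest differences among licensing genes were those of Mcm4 (0.66, SE 0.21) and Mcm5 (0.73, SE 0.26), 2 subunits of the helicase ring. Aurka and Aurkb, kinases of the spindle pole and the chromosome, had differences of 0.51 (SE 0.27, adjusted p = 0.134) and -0.30 (SE 0.20, adjusted p = 0.237), which did not pass the test.

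Hmgb2, a chromatin protein that bends DNA and is also plentiful in cells that do not divide, was the exception. It was at 84.3, 78.7, 97.6 and 99.9 CPM in control macrophages and at 313, 309, 297 and 337 CPM in control monocytes. Every monocyte library was far above every macrophage library. The difference was -1.80 (SE 0.19, adjusted p = 1.22e-08).

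**Figure D1:**
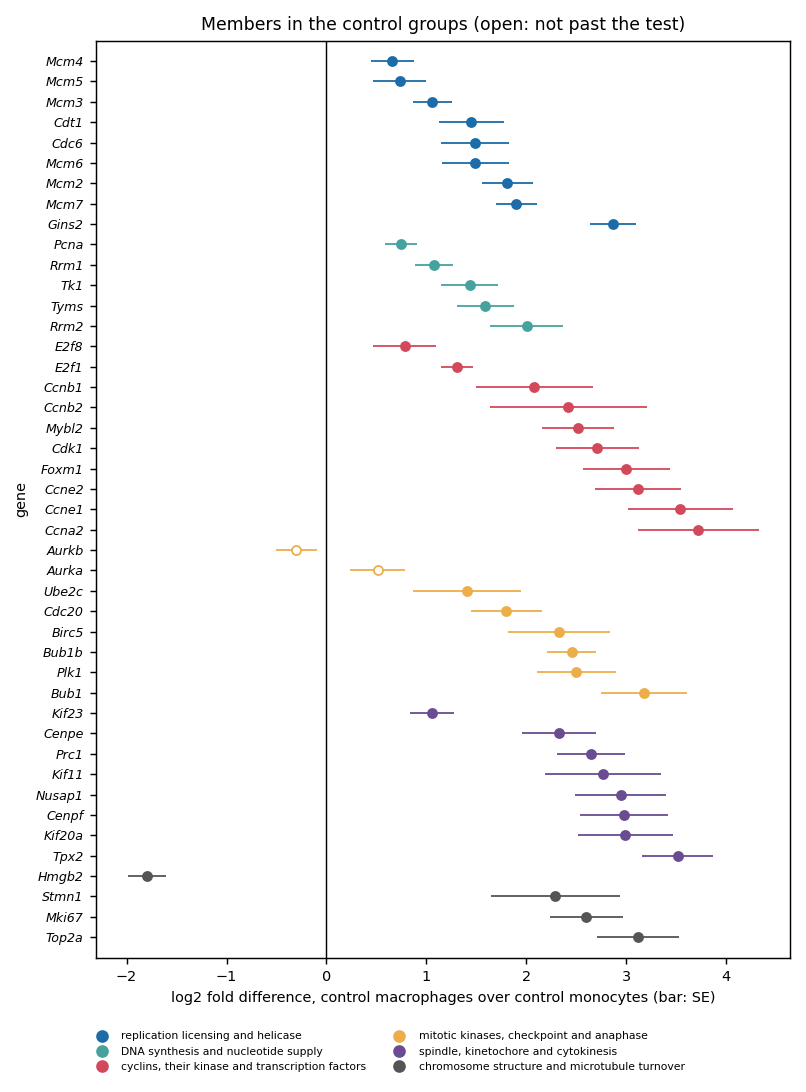
Log2 difference between control macrophages and control monocytes (4 libraries each) for the 44 genes, ordered within roles, with bars for the SE and open symbols where the test was not passed. Only Hmgb2 among the genes past the test lies below 0, and Ccna2 lies highest at 3.72.

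FPKM are here CPM divided by the kilobases of exon, with the exons of all annotated transcripts of a gene merged. This length can exceed that of the transcript made, so the order of genes is approximate. By this measure Pcna was the most abundant of the 44 in control macrophages at 101 ± 7.10 FPKM (SD, n = 4). It was followed by Stmn1 at 51.7 ± 10.6 and Hmgb2 at 34.3 ± 2.82 FPKM. Cenpf, a very long kinetochore gene, was the least abundant at 0.532 ± 0.108 FPKM. In control monocytes Hmgb2 was at 92.6 ± 3.59 FPKM, followed by Pcna at 46.6 ± 7.36 and Mcm3 at 9.14 ± 1.42 FPKM. At 14 d the order in macrophages was Stmn1 (53.4 ± 5.22 FPKM, n = 3), Pcna (43.7 ± 6.45), Ccnb2 (35.8 ± 3.01), Hmgb2 (25.9 ± 4.44) and Cdc20 (22.9 ± 1.98). Stmn1 and Pcna were within their spread of each other at 14 d and not in controls.

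In macrophages at 3 d, when injury starts, few of these genes differed from controls. None of the 44 was higher than in controls, where 1.05% of the 20944 genes tested were higher, and 1 was lower, where 0.224% were lower. At an unadjusted p under 0.05, edgeR's quasi-likelihood test gave 0 higher and 4 lower. DESeq2, with the same thresholds on its adjusted p and fold, called 0 higher and 1 lower. The gene called was Kif23, a kinesin of the midbody through which the daughter cells part. It was at 38.0, 27.7, 39.1 and 45.01 CPM in controls and at 16.6, 24.0 and 24.2 CPM at 3 d. The groups did not overlap, the change was -0.80 (SE 0.18, adjusted p = 0.0426), and 7 of 10 other settings did not call it. The call was also lost without replicate 1, 3 or 4 of the controls, replicate 1 or 3 at 3 d, or replicate 1 at 14 d, which left 0 genes. The 20 genes of the mitotic kinase, spindle and chromosome groups all had a negative fitted value at 3 d, from -0.80 to -0.10, with 19 of them not past the test. Of all 44 genes 31 were negative and 13 positive. The share of all genes with a negative value was not counted, and their median was -0.007.

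The 3 libraries at 3 d differed widely among themselves. The summed level of the spindle group was 77.5, 124 and 154 CPM in replicates 1, 2 and 3, against 129 to 201 CPM in controls. The licensing group summed to 552, 344 and 714 CPM in the same order, so the library that was lowest for mitotic genes was not the lowest for licensing genes. Pcna, the sliding clamp of the DNA polymerases, was at 281, 208 and 367 CPM.

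At 14 d, the peak of injury, genes of the set were called in both directions, as genes were at large. Of the 44 genes, 11 (25%) were higher than in controls, where 39.4% of all genes tested were higher, and 8 (18.2%) were lower, where 22.9% were lower, and 5 of the 8 lower calls were lost under each of 3 other scalings. Genes of mitosis and of its transcriptional control (Mybl2, Plk1, Ccnb2, Cdc20, Ube2c, Cdk1, Foxm1, Prc1), with Tyms, Rrm1 and E2f8, rose. The clamp Pcna, the licensing genes Cdt1, Mcm7 and Gins2, the factor E2f1 and the mitotic genes Nusap1, Cenpe and Bub1b fell. In each of the 19 the 3 libraries at 14 d lay outside the range of the 4 controls. The groups did not overlap in 23 of the 44 genes in all, called or not. That share was not counted over all genes.

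**Figure D2:**
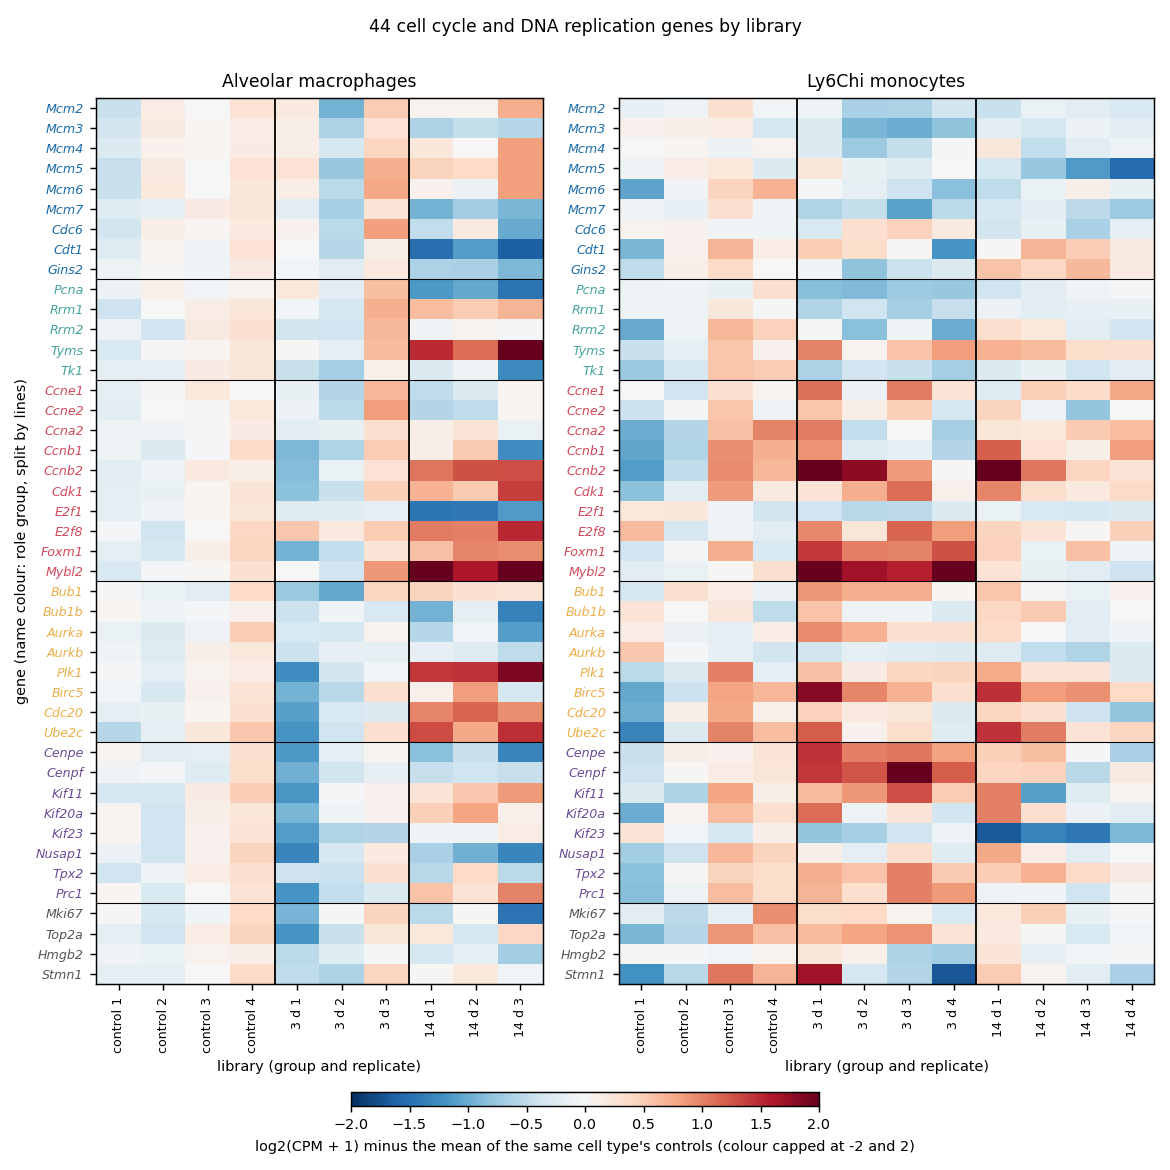
Level of each of the 44 genes (lines, by role) in each of the 22 libraries (columns, by group), as log2(CPM + 1) minus the mean of the controls of the same cell type, with colours capped at 2 in either direction. Mybl2, Plk1, Tyms and Ccnb2 are above the control mean in all 3 macrophage libraries at 14 d, and Pcna, Cdt1 and E2f1 are below it.

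Mybl2 encodes B-MYB, which turns on genes of G2 and mitosis. It was at 5.75, 7.15, 7.47 and 9.29 CPM in control macrophages, at 7.24, 5.35 and 14.2 CPM at 3 d, and at 32.0, 24.4 and 51.2 CPM at 14 d. Every 14 d library was above every other macrophage library. The change from control was 2.27 (SE 0.31, adjusted p = 3.35e-05).

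Plk1, the kinase that drives entry into and passage through mitosis, was at 13.7, 12.2, 14.9 and 15.8 CPM in controls, at 5.37, 10.7 and 13.6 CPM at 3 d, and at 39.3, 40.1 and 54.3 CPM at 14 d. The 14 d libraries lay well above the rest, a change of 1.65 (SE 0.23, adjusted p = 3.50e-05). Tyms, thymidylate synthase, which makes the thymine nucleotide for new DNA, was at 13.6, 17.3, 17.8 and 20.3 CPM in controls and 49.6, 38.2 and 77.3 CPM at 14 d. This was a change of 1.67 (SE 0.24, adjusted p = 4.28e-05), again with replicate 3 the highest.

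Ccnb2, cyclin B2, was at 19.8, 21.6, 26.6 and 25.1 CPM in controls and 49.6, 57.2 and 57.8 CPM at 14 d, and rose by 1.24 on the log2 scale (SE 0.21, adjusted p = 0.000169). Cdc20, which turns on the ligase that starts anaphase, was at 17.8, 18.5, 21.2 and 25.5 CPM in controls and 41.3, 47.0 and 40.1 CPM at 14 d. These libraries were tight and apart from controls, with a change of 1.05 (SE 0.20, adjusted p = 0.000354). E2f8, a repressing member of the E2F family, rose by 1.31 (SE 0.26, adjusted p = 0.000407) and Ube2c, the ubiquitin-conjugating enzyme of the same ligase, by 1.197 (SE 0.35, adjusted p = 0.00919).

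Cdk1, the kinase of mitotic entry, rose by 0.93 (SE 0.29, adjusted p = 0.0105), Foxm1 by 0.87 (SE 0.29, adjusted p = 0.0138), Prc1, which bundles microtubules of the central spindle, by 0.65 (SE 0.23, adjusted p = 0.0186), and Rrm1, a subunit of ribonucleotide reductase, by 0.59 (SE 0.22, adjusted p = 0.0243). Without replicate 3 of the 14 d group the calls of Cdk1, Foxm1, Ube2c, Prc1 and Rrm1 were lost and 6 genes were called higher. Those of Prc1 and Rrm1 were also lost without others. Mybl2, Tyms, Plk1, Ccnb2, E2f8 and Cdc20 were called under all 10 other settings and in all 10 fits without 1 library.

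Of the genes that fell, Cdt1, which loads the helicase onto origins, was at 43.2, 53.7, 48.4 and 63.1 CPM in controls, 52.0, 34.5 and 56.3 CPM at 3 d and 17.6, 23.3 and 15.9 CPM at 14 d. The 14 d libraries lay below every other, a change of -1.46 (SE 0.20, adjusted p = 2.83e-05). E2f1, an activating E2F factor, was at 59.0, 63.6, 70.3 and 80.1 CPM in controls, 56.6, 57.0 and 58.9 CPM at 3 d, and 24.2, 24.4 and 30.3 CPM at 14 d. Its 3 d libraries lay just under the controls (-0.25, SE 0.14, adjusted p = 0.450) and its 14 d libraries far below them (-1.38, SE 0.15, adjusted p = 3.53e-06).

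Pcna was at 225, 259, 233 and 255 CPM in controls and at 109, 118 and 87.9 CPM at 14 d, and fell by 1.21 on the log2 scale (SE 0.18, adjusted p = 4.80e-05). The helicase subunit Mcm7 fell by 0.88 (SE 0.20, adjusted p = 0.00123) and Gins2, a part of the active helicase, by 0.75 (SE 0.15, adjusted p = 0.000545). Nusap1 and Cenpe, which act on spindle microtubules and at kinetochores, fell by 1.06 (SE 0.34, adjusted p = 0.0121) and 0.91 (SE 0.31, adjusted p = 0.0170), and Bub1b, a kinase-like protein of the spindle checkpoint, by 0.75 (SE 0.21, adjusted p = 0.00536).

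Rrm1 was at 49.0, 65.9, 72.9 and 77.5 CPM in control macrophages, 63.2, 50.9 and 108 CPM at 3 d and 100.4, 93.5 and 105 CPM at 14 d. Ube2c was at 8.83, 11.9, 16.1 and 20.4 CPM in controls, 5.45, 10.1 and 17.3 CPM at 3 d and 35.2, 23.7 and 39.9 CPM at 14 d. Bub1b was at 76.3, 69.5, 73.4 and 79.5 CPM in controls, 54.96, 71.3 and 60.3 CPM at 3 d and 38.3, 65.7 and 28.7 CPM at 14 d. The 14 d libraries lay above all controls for Rrm1 and Ube2c and below them for Bub1b, whose replicate 2 came close to the controls.

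Mcm7 was at 71.7, 75.8, 95.8 and 100.2 CPM in controls, 72.2, 53.5 and 103 CPM at 3 d and 43.5, 51.9 and 44.8 CPM at 14 d. Mcm6, another ring subunit, was at 56.0, 88.8, 75.8 and 89.5 CPM in controls, 83.7, 52.1 and 131 CPM at 3 d and 80.8, 69.9 and 136 CPM at 14 d. The first was below all controls at 14 d and the second overlapped them. Kif20a, a kinesin of cytokinesis, was at 27.3, 19.6, 28.5 and 31.1 CPM in controls and 37.0, 46.1 and 28.2 CPM at 14 d, and Tpx2 at 19.4, 24.5, 28.6 and 32.7 CPM against 17.3, 34.3 and 17.4 CPM. Both overlapped the controls.

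The remaining 25 genes were not called at 14 d, among them several that are widely used to mark dividing cells. Mki67 was at 58.3, 45.8, 53.9 and 76.1 CPM in controls and at 39.3, 58.5 and 19.9 CPM at 14 d, with overlap and a fitted value of -0.57 (SE 0.38, adjusted p = 0.209). Top2a was at 47.4, 41.1, 60.7 and 74.5 CPM against 63.4, 42.3 and 73.0 CPM (0.09, adjusted p = 0.816). Ccna2 had a value of 0.09 (adjusted p = 0.625), Birc5, a passenger protein of mitotic chromosomes, one of 0.28 (adjusted p = 0.445), Ccnb1 one of -0.03 (SE 0.42, adjusted p = 0.948) and Stmn1, which destabilises microtubules, one of 0.04 (adjusted p = 0.869). The ring subunits Mcm2, Mcm4, Mcm5 and Mcm6 had values of 0.30 to 0.55, and Mcm3 one of -0.58 (SE 0.20, adjusted p = 0.0157), under the 1.5-fold threshold. The ring therefore had 1 subunit called lower and 5 not called.

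The 14 d libraries also differed among themselves in these genes. Replicate 3 was the lowest of the 3 for Mki67 (19.9 CPM), Ccnb1 (6.09 CPM against 17.3 and 23.1), Bub1b (28.7 against 38.3 and 65.7) and Tk1 (10.8 against 22.6 and 25.7), and the highest for Mybl2, Tyms, Cdk1 (60.9 against 37.5 and 33.1) and Mcm6 (136 against 80.8 and 69.9). The summed level of all 44 genes was 1625, 1717 and 1804 CPM at 14 d and 1536 to 2074 CPM in controls, so the sum overlapped while single genes did not.

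**Figure D3:**
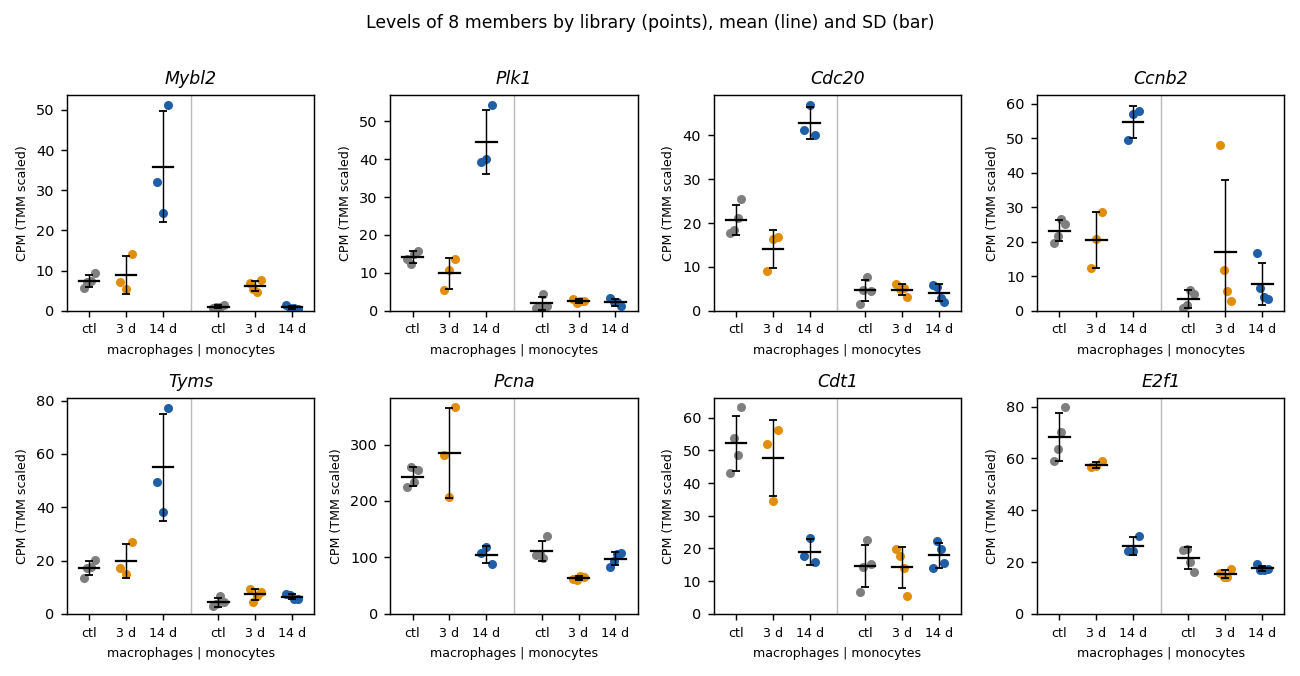
CPM of Mybl2, Plk1, Cdc20, Ccnb2, Tyms, Pcna, Cdt1 and E2f1 in each library of the 6 groups, with the mean and SD of each group. In macrophages at 14 d the first 5 lie above all control libraries and the last 3 below them, and in monocytes Mybl2 is high at 3 d at 4.78 to 7.53 CPM.

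The scaling of the libraries bears on these counts. TMM factors were 1.17 to 1.29 in macrophages at 14 d and under 1 in the other macrophage groups. Scaling by library size moved the median change of all genes by 0.44, scaling by the upper quartile by 0.35, and TMM factors set by the high genes (mean log2 CPM over 5) by 0.56. The counts then became 17 higher and 3 lower, 15 and 3, and 21 and 3, against 11 and 8 with TMM. Cdt1, E2f1 and Pcna are the 3 genes called lower under each of these scalings, and the lower calls of Mcm7, Gins2, Bub1b, Cenpe and Nusap1 were lost under each. Without replicate 2 of the 3 d group, 13 genes were called lower at 14 d.

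Above 3 on the log2 CPM scale, other genes at the same levels were called lower more often than higher. Between 3 and 5 on the log2 CPM scale, where 23 of the 44 genes lay, 16.0% of 4413 genes were higher at 14 d and 35.3% lower, with a median of -0.35, whereas 10 of the 23 were higher and 2 lower, with a median of 0.48. Between 5 and 7, where 17 of the 44 lay, 5.59% of 4096 genes were higher and 45.3% lower (median -0.53), and of the 17 genes 1 was higher and 5 lower (median -0.02). From 1 to 3 it was the reverse, with 43.5% of 3760 genes higher and 13.1% lower (median 0.52). Of the 3 genes of the set there, 0 were called in either direction (median -0.52). Above 7, 3.98% of 1457 genes were higher and 54.8% lower (median -0.65). Pcna, the 1 gene of the set at that level, was lower (-1.21).

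**Figure D4:**
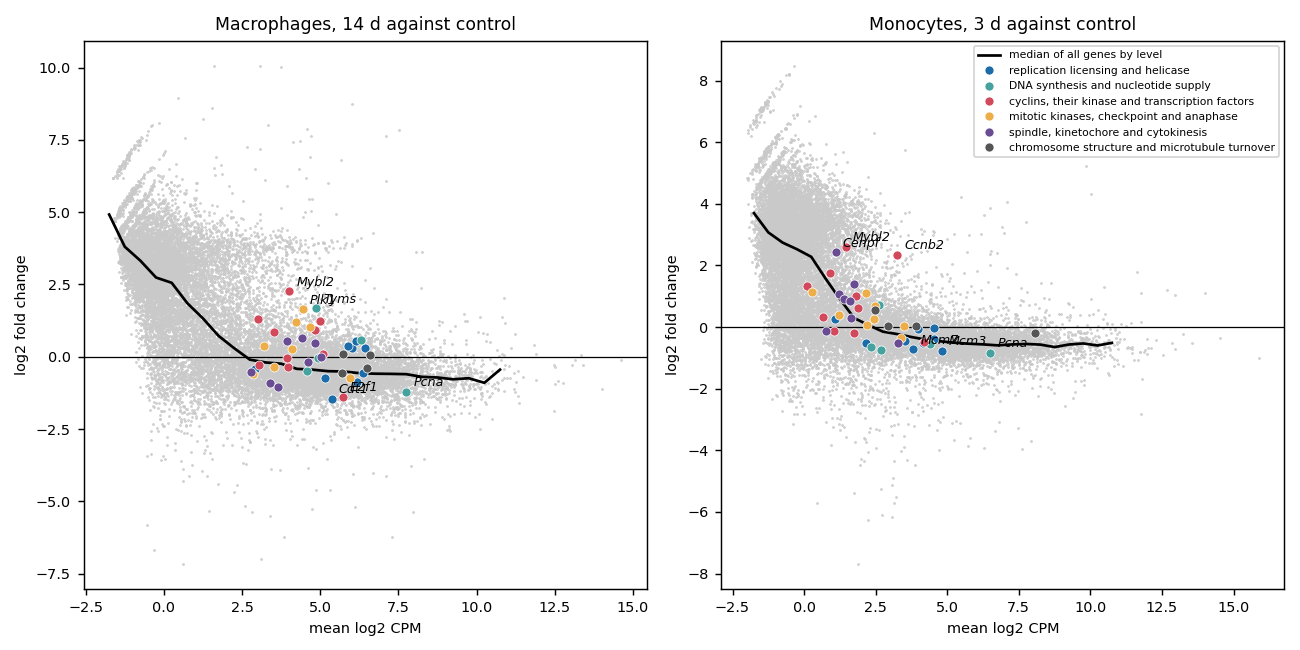
Log2 change against mean log2 CPM for macrophages at 14 d (left) and monocytes at 3 d (right), each against control, with all genes in grey, their median by level in black and the 44 genes coloured by role. The black line falls from above 0 at low levels to below 0 at high levels in both plots, and the 23 genes between 3 and 5 in the left plot have a median of 0.48.

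Compared with 3 d instead of controls, 13 of the 44 genes were higher in macrophages at 14 d, where 36.3% of all genes were, and 5 were lower, where 20% were. Plk1 had a change of 2.18 (SE 0.26, adjusted p = 3.37e-05), Mybl2 one of 2.02 (SE 0.34) and Cdc20 one of 1.61 (SE 0.22). Cdc20 was at 9.10, 16.4 and 16.8 CPM at 3 d, below all controls, so the 14 d group was farther from the 3 d group than from controls. The kinesins Kif11, Kif20a and Kif23 were called higher here (0.91, 0.76 and 0.78) and not against controls, and Kif23 at 14 d (35.3, 35.0 and 40.9 CPM) was back in the range of controls. Pcna (-1.44), Cdt1 (-1.32), E2f1 (-1.13), Gins2 (-0.72) and Mcm7 (-0.70) were lower. With the other scalings the counts were 20 higher and 3 lower (library size), 17 and 3 (upper quartile) and 20 and 3 (TMM from high genes). Without replicate 1 or 2 of the 3 d group 8 genes were higher, and without replicate 1 or 2 at 3 d or replicate 2 at 14 d 9, 10 or 8 were lower. This comparison and that with controls share the 14 d libraries.

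Transcripts of other cell types moved with the 14 d macrophages. The summed neutrophil list was 1502, 1745 and 443 CPM at 14 d against 37.9 to 61.4 CPM in controls (8 of 8 tested markers higher, led by S100a9 and S100a8, where 39.4% of all genes were), the eosinophil list 56.2 to 242 against 0.664 to 2.43 CPM (5 of 5) and the list of granulocyte and monocyte precursors 42.6 to 56.3 against 2.96 to 9.89 CPM (4 of 5). Of all genes with a mean log2 CPM of 1 or less, 78.0% were higher at 14 d, with a median change of 2.94, and the precursor markers had a median of 2.46. Elane, 1 of the defining precursor markers, had no count in control macrophages. Ly6Chi monocyte markers summed to 209 to 432 CPM against 37.8 to 66.5 CPM (5 of 8), endothelium and fibroblast markers to 226 to 411 against 120 to 172 CPM (7 of 9 higher and 1 lower) and dendritic cell markers to 28.1 to 90.5 against 22.5 to 36.4 CPM (3 of 7). Of 9 epithelial markers 3 were higher and 4 lower, and 7 of 10 alveolar macrophage markers were lower. The part of these cells in the changes was not tested.

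In monocytes at 3 d, 7 of the 44 genes were higher than in controls, where 36.8% of the 22353 genes tested were higher, and 3 were lower, where 14.4% were. Library size scaling gave 13 and 0, the upper quartile 14 and 0 and TMM from high genes 13 and 0. These scalings moved the median of all genes by 0.48, 0.40 and 0.52. The genes that rose were Mybl2, Foxm1, E2f8, Ccnb2, Aurka, Cenpe and Cenpf, and those that fell were the replication genes Pcna, Mcm3 and Mcm7. Without replicate 2 of the controls 4 were higher. Without replicate 1 or 2 of the controls, replicate 4 at 3 d or replicate 1 at 14 d 8, 5, 5 and 5 were lower.

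Mybl2 again led. It was at 0.704, 0.807, 1.01 and 1.46 CPM in control monocytes, at 6.95, 5.30, 4.78 and 7.53 CPM at 3 d, and at 1.39, 0.789, 0.692 and 0.484 CPM at 14 d. The 3 d libraries stood apart from all others, at 2.62 against control (SE 0.38, adjusted p = 0.000478). Cenpf, a kinetochore protein, was at 0.331, 0.807, 0.965 and 1.10 CPM in controls and 3.74, 3.23, 7.42 and 3.11 CPM at 3 d, a change of 2.44 (SE 0.54, adjusted p = 0.00290).

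Foxm1 was at 0.414, 0.807, 2.05 and 0.488 CPM in controls and 3.90, 2.69, 2.69 and 3.48 CPM at 3 d, without overlap (1.75, SE 0.52, adjusted p = 0.0117). Cenpe rose by 1.41 (SE 0.40, adjusted p = 0.00994), E2f8 by 1.01 (SE 0.35, adjusted p = 0.0253, with overlap) and Aurka by 0.69 (SE 0.25, adjusted p = 0.0297). Ccnb2 had a fitted change of 2.35 (SE 0.93, adjusted p = 0.0488), but its libraries were at 48.0, 11.9, 5.64 and 2.78 CPM at 3 d and 0.704, 1.61, 6.15 and 4.88 CPM in controls. Those groups overlapped, replicate 1 of the 3 d group carried most of the difference, and the call was lost in 9 of 12 fits without 1 library.

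The genes that fell at 3 d were higher in level. Pcna was at 104, 106, 99.7 and 138 CPM in controls and 61.2, 59.4, 66.5 and 65.0 CPM at 3 d, without overlap (-0.83, SE 0.14, adjusted p = 0.000820). Mcm3 was at 35.9, 37.1, 37.8 and 26.4 CPM against 27.8, 17.5, 16.5 and 19.1 CPM, with overlap (-0.76, SE 0.19, adjusted p = 0.00444), and Mcm7 fell by 0.71 (SE 0.20, adjusted p = 0.00943). Under library size, upper quartile and high-gene scaling none of the 3 was called. Other genes at these levels fell as well. Between 3 and 5 on the log2 CPM scale, 23.4% of 3862 genes were lower (median -0.38). Of the 14 genes of the set there, 2 were lower and 1 higher (median -0.42). Between 5 and 7, 40.4% of 3109 genes were lower (median -0.54), as was the 1 gene of the set there.

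Mki67 and Top2a were not called in monocytes at 3 d. Mki67 was at 5.68, 4.41, 5.87 and 13.8 CPM in controls and 8.94, 9.21, 7.20 and 5.27 CPM at 3 d (0.04, SE 0.33, adjusted p = 0.923). Plk1, which rose in the 14 d macrophages, had a value of 0.39 (SE 0.49, adjusted p = 0.515) and Cdc20 one of 0.06 (SE 0.44, adjusted p = 0.913). Below 1 on the log2 CPM scale, where 66.6% of 10429 genes were higher at 3 d with a median of 2.66, 1 of 5 of these genes was higher. Between 1 and 3, 30.6% of 3626 genes were higher and 9.51% lower (median 0.19), and 5 of 23 of these genes were higher and 0 lower (median 0.55).

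Control monocytes were uneven in many of these genes. Stmn1 was at 5.01, 8.50, 28.2 and 21.3 CPM, Ccnb1 at 0.622, 1.18, 5.35 and 4.48 CPM and Ccna2 at 0.249, 0.645, 2.73 and 3.95 CPM in replicates 1 to 4. Replicates 3 and 4 were the higher ones for each. The summed T and NK cell markers were 348, 525, 1462 and 1243 CPM in the same libraries, against 18.2 to 277 CPM at 3 d, where 6 of 10 of these markers were lower. The B cell list was lower as well (284 to 419 against 525 to 1202 CPM, 7 of 7), and 5 of 8 precursor markers were higher and 1 lower. Of the other lists, 6 of 10 alveolar macrophage markers and 5 of 6 tested erythroid markers were lower at 3 d, and 4 of 9 endothelium and fibroblast markers were higher. Of 10 neutrophil markers 3 were higher and 1 lower, and 2 of 2 tested eosinophil markers were higher. Among all genes 36.8% were higher and 14.4% lower. At a mean log2 CPM of 1 or less 66.6% were higher (median 2.66), and the precursor markers had a median of 1.51. The study's gate for monocytes left out CD3+ lymphocytes, Ly6G+ neutrophils, eosinophils and alveolar macrophages. The part of other cells in these values was not tested.

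At 14 d few of the genes differed from controls in monocytes. None of the 44 genes was higher, where 3.22% of all genes were, and 2 were lower, where 5.34% were. At an unadjusted p under 0.05 edgeR's quasi-likelihood test gave 0 higher and 4 lower, and DESeq2, by its adjusted p and fold, called 0 higher and 2 lower. Kif23 was at 16.9, 13.2, 10.7 and 15.2 CPM in controls, 7.68, 8.31, 10.2 and 12.8 CPM at 3 d and 3.62, 4.88, 4.52 and 6.97 CPM at 14 d. The 14 d libraries lay below all others (-1.48, SE 0.25, adjusted p = 0.00161), a call kept in every other setting and fit. Mcm5 was at 26.0, 31.1, 32.2 and 22.9 CPM in controls and 21.5, 16.0, 12.1 and 9.07 CPM at 14 d (-0.94, SE 0.24, adjusted p = 0.0228), a call lost without replicate 2 or 3 of either group. Marker lists moved in these libraries too. Precursor markers were higher in 4 of 8. B cell markers were lower in 6 of 7, T and NK cell markers in 4 of 10 and tested erythroid markers in 3 of 6. In each of these lists 0 went the other way, but other lists were mixed or hardly called. Ly6Chi monocyte markers were 1 higher and 2 lower of 9, and alveolar macrophage markers 1 and 1 of 10. Dendritic cell markers were 1 and 1 of 7, tested epithelial markers 1 and 2 of 8, and endothelium and fibroblast markers 0 and 1 of 9. Of 2 tested eosinophil markers 1 was higher, and of 10 neutrophil markers 0 were called. The part of other cells was not tested here either.

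Against 3 d, 2 of the 44 genes were higher in monocytes at 14 d, where 12% of all genes were, and 8 were lower, where 34.5% were. Gins2, at 3.90, 1.93, 2.79 and 3.20 CPM at 3 d and 6.63, 5.87, 7.08 and 4.84 CPM at 14 d (1.04, SE 0.30, adjusted p = 0.0117), and Pcna (0.63, SE 0.14, adjusted p = 0.00361) were higher, and Mybl2 (-2.87, SE 0.39, adjusted p = 0.000486), Cenpf (-2.10), Foxm1 (-1.44), Prc1 (-1.20), Cenpe (-1.19), Kif23 (-0.96), Mcm5 (-0.90) and Aurka (-0.65) lower. Library size and upper quartile scaling each gave 0 higher and 11 lower, and high-gene TMM 0 and 13, with shifts of the median of all genes of -0.38, -0.42 and -0.46. Without replicate 3 at 14 d 5 were lower, and without replicate 2 or 3 at 3 d or replicate 3 or 4 at 14 d 1 was higher.

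The responses of both cell types were compared gene by gene in 1 fit over the 22 libraries. At 3 d the change differed for 6 of the 44 genes. Pcna was relatively higher in macrophages, where 3.51% of 26692 genes were, and Cenpf (-3.16, SE 0.62, adjusted p = 0.00212), Mybl2 (-2.53, SE 0.51, adjusted p = 0.00256), Foxm1 (-2.33), Cenpe (-1.97) and Prc1 (-1.68) were relatively lower in macrophages, where 15.2% of genes were. Mybl2 had a fitted change of 0.25 in macrophages (adjusted p = 0.773) and of 2.62 in monocytes at this time.

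At 14 d the change differed for 11 genes. Mybl2 (2.19, SE 0.52, adjusted p = 0.00228), Mcm5 (1.14, SE 0.39) and Kif23 (1.12, SE 0.32) were relatively higher in macrophages, where 16.9% of genes were. Cdt1 (-2.08, SE 0.48, adjusted p = 0.00197), Gins2 (-1.61), Cenpe (-1.49), E2f1 (-1.44), Pcna (-1.36), Bub1b (-1.31), Hmgb2 (-0.76) and Mcm7 (-0.75) were relatively lower, where 19.9% were. Cdt1 was not called in monocytes, whose libraries were at 13.9, 22.4, 19.7 and 15.6 CPM at 14 d and 6.80, 14.5, 22.5 and 15.3 CPM in controls. With TMM factors from high genes the values of Mcm7 and Hmgb2 turned to 0.03 and 0.02. The differences of Mcm7, Cenpe and Hmgb2 did not pass the test under any of the 4 other settings of this fit, and without replicate 3 of the 14 d macrophages 7 genes differed.

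Genes of the same processes outside the 44 were counted from fixed lists, to be read against the shares of all genes called. In macrophages at 14 d these were 39.4% higher and 22.9% lower, in monocytes at 3 d 36.8% and 14.4%, and in monocytes at 14 d 3.22% and 5.34%. Of 36 other replication fork and origin genes, 5 were higher and 8 lower in macrophages at 14 d against control, of 16 other S phase genes 3 and 6, of 40 other mitosis genes 8 and 4, of 21 G1 cyclins, kinases and pocket proteins 2 and 7, and of 16 kinase inhibitors and antiproliferative genes 8 and 4. In monocytes at 3 d the counts were 5 and 6, 6 and 2, 12 and 3, 1 and 6, and 1 and 4 of 14 tested. At 14 d in monocytes they were 0 and 3, 0 and 0, 1 and 3, 0 and 3, and 0 and 3. In macrophages at 3 d none of these genes was called.

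The D-type cyclins, which couple growth signals to the start of the cycle, went in opposite directions in macrophages at 14 d. Ccnd1 was at 59.2 ± 33.4 CPM (SD, n = 3) against 9.94 ± 2.50 CPM (n = 4), a change of 2.57 (SE 0.34, adjusted p = 5.58e-05), and Ccnd2 at 51.9 ± 7.74 against 342 ± 21.6 CPM, a change of -2.72 (SE 0.15, adjusted p = 3.15e-08). Gadd45a, a stress gene that slows the cycle, rose by 2.56 (SE 0.23, adjusted p = 1.09e-06) and Chek1, a kinase of the replication checkpoint, by 2.36 (SE 0.29, adjusted p = 9.67e-06). The antiproliferative gene Tob1 fell by 1.77 (SE 0.20, adjusted p = 4.99e-06) and Pttg1, securin, which guards sister chromatids until anaphase, by 1.5 (SE 0.16, adjusted p = 3.63e-06). Against 3 d, Pole, the leading-strand polymerase, was higher by 1.90 (SE 0.26) and Orc6, a subunit of the origin recognition complex, lower (-1.79, SE 0.32).

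Ccnd2 was also lower in monocytes, by fitted changes of -2.002 at 3 d (SE 0.46, adjusted p = 0.00378, with overlap) and -2.64 at 14 d (SE 0.47, adjusted p = 0.00304), with controls at 69.9 ± 48.5 CPM. Btg2, which restrains division, fell by 1.89 at 3 d (SE 0.21, adjusted p = 0.000149) and 1.55 at 14 d (SE 0.21, adjusted p = 0.000312), and Tob2 fell by 1.49 at 3 d (SE 0.18, adjusted p = 0.000271). Cks2, a small partner of the mitotic kinase, fell by 1.64 at 14 d (SE 0.23, adjusted p = 0.000455), and the tubulin gene Tubb5 rose by 0.85 (SE 0.22, adjusted p = 0.0256). Against 3 d at 14 d, Btg1, Gadd45b and Cdk6 had changes of 1.43, 1.12 and 1.05, and Timeless, Racgap1 and Cks2 of -1.21, -0.64 and -0.60.

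Some of the 44 share exon bases with a neighbour. These are Gins2 with Gse1 (2758 bases), Kif20a with Cdc23 (1271), Prc1 with Rccd1 (911), E2f8 with Gm2788 (610), Ccne2 with Ints8 (609), Ube2c with Tnnc2 (592), Ccna2 with Exosc9 (510), Mcm7 with Ap4m1 (321), Nusap1 with Oip5 (172) and Plk1 with Gm44985 (156). Smaller overlaps are those of Foxm1 with Tex52 (144), Top2a with Gm23451 (122), Tk1 with Afmid (83), Stmn1 with Gm23634 (66) and Cdc20 with Elovl1 (53). Ccnb1, Ccnb2, Pcna and Tyms have processed pseudogenes in the annotation. The library kit does not mark strand, so reads in shared bases cannot be assigned, and the values of these genes are uncertain to that extent.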

How the data were processed

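RNA was measured in 22 sorted samples, 10 of alveolar macrophages and 12 of Ly6Chi monocytes, grouped by the cell type and time in their labels. The authors deposited raw read counts per Ensembl gene, not normalized, 1 table for each cell type. The submitters' processing notes name STAR 2.7.2c and 2.7.3a, featureCounts 1.6.3, DESeq2 1.26.0 and 1.28.1 and the builds GRCm38 and mm10, with no role or order, and use of strand is not given in the sources used here. Gene names and exon lengths came from GENCODE vM21 on GRCm38, which matched 31059 of 31134 macrophage and 55240 of 55421 monocyte identifiers.

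The work used R 4.3.3, edgeR 4.0.16, limma 3.58.1 and DESeq2 1.42.0. The 3 groups of a cell type entered 1 fit of edgeR's quasi-likelihood test (filterByExpr, TMM, robust dispersion), whose p-values were adjusted by Benjamini-Hochberg across every gene that passed the filter. Calls needed an adjusted p under 0.05 together with a change of more than 1.5-fold. The SE of a log2 change was derived from the same test, as its absolute value over the square root of the F statistic. It is therefore not a measure of precision independent of the p-value. Differences between cell types came from 1 fit over the 22 samples and the genes in both tables, and CPM of control groups set side by side across cell types used the TMM factors of that fit. All other CPM used TMM factors within a cell type, and FPKM divided them by the merged length of all annotated exons of a gene.

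The genes and lists were chosen with earlier results of these data known. Values per sample were given for the 3 genes of each role with the highest mean CPM and for the 3 called genes with the largest change per comparison and direction. The other pathway genes named are the 3 called genes with the largest change per comparison and direction of those over 3 in mean log2 CPM. Values per sample of Top2a, Ccnb1, Tk1 and Cdk1 were added after they were seen. The alternatives tried were the DESeq2 test, scaling by library size or by the upper quartile, TMM factors set by the high genes (mean log2 CPM over 5), no filter, a stricter filter (mean log2 CPM over 1), only the groups compared, a replicate block, calls on the adjusted p alone, glmTreat, and leaving out each sample. The tests were checked on simulated counts, in which equal numbers of genes rose and fell by 1 large change. That check does not bear on the choice of scaling or on changes near 1.5-fold.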

Additional observations from a re-analysis of the deposited data

Results flagged for a closer look

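In 25 of the genes, the 100 groups of 4 monocyte or macrophage libraries were searched for a library far from the other three in its group, and 6 were found, where chance gives about 5 per 100. In monocytes at 3 d, Cenpf was at 7.42 CPM in replicate 3 against 3.74 CPM in the nearest library, and Stmn1 at 43.6 CPM in replicate 1 against 10.01 CPM. In control monocytes, replicate 4 was at 13.8 CPM for Mki67 (nearest 5.87), at 138.0 CPM for Pcna (nearest 106) and at 26.4 CPM for Mcm3 (nearest 35.9), and replicate 3 was at 4.38 CPM for Plk1 (nearest 1.34). Replicates 3 and 4 of the control monocytes are also the libraries with the most T and NK cell transcripts (1462 and 1243 CPM), whose part was not tested.

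The change after tamoxifen differed between the cell types by the test of the difference itself for 17 results. The values are log2 changes in macrophages minus those in monocytes. At 3 d they were 0.887 for Pcna, -1.68 for Prc1, -1.97 for Cenpe, -2.33 for Foxm1, -2.53 for Mybl2 and -3.16 for Cenpf. At 14 d they were 2.19 for Mybl2, 1.14 for Mcm5 and 1.12 for Kif23, and -0.754 for Mcm7, -0.764 for Hmgb2, -1.31 for Bub1b, -1.36 for Pcna, -1.44 for E2f1, -1.49 for Cenpe, -1.61 for Gins2 and -2.08 for Cdt1. Pcna and Mybl2 differed at both times with opposite signs, and Cenpe with the same sign.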

How the results depend on the processing

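Counts are of the 44 genes, and a count is given where it moved by more than 1.5 times. In macrophages at 14 d against control (11 higher, 8 lower), higher counts were 17 with library size scaling, 21 with TMM from high genes, 7 with no filter and 7 with glmTreat, and lower counts were 3 with each of the 3 other scalings and with the filter at log2 CPM 1, 4 with glmTreat and 13 with no filter. Against 3 d (13 higher, 5 lower) they were 20 higher with library size and high-gene TMM scaling, and lower 3 with each other scaling, the stricter filter and glmTreat and 11 with no filter. The 1 gene lower at 3 d became 0 with each other scaling, the stricter filter, only the groups compared, glmTreat and the replicate block. In monocytes at 3 d (7 higher, 3 lower) higher counts were 13 with DESeq2, library size and high-gene TMM scaling, 14 with the upper quartile, and 4 with no filter and glmTreat, and lower counts 0 with each other scaling and the stricter filter, 1 with glmTreat, 5 on the adjusted p alone and 10 with no filter. At 14 d the 2 genes lower became 1 with library size and upper quartile scaling, glmTreat and only the groups compared. Against 3 d (2 higher, 8 lower) the higher count was 1 with DESeq2, 4 on the adjusted p alone and 0 with each other scaling, the stricter filter and glmTreat, and the lower count 13 with high-gene TMM, 4 with no filter and 2 with glmTreat. The cause of these shifts was not tested.

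Leaving out each library gave 6 to 11 higher and 6 to 13 lower in macrophages at 14 d, 8 to 16 and 5 to 10 against 3 d, and 0 to 0 and 0 to 1 at 3 d. In monocytes it gave 4 to 8 and 2 to 8 at 3 d, 0 to 0 and 1 to 2 at 14 d, and 1 to 2 and 5 to 9 against 3 d. The difference between cell types held for 4 to 8 genes at 3 d and 7 to 13 at 14 d, and that of controls for 39 to 42. Of 144 results for single genes, 3256 values under other settings or without 1 library kept the call and direction in 2943, lost the call in 311 and turned the direction in 2, the differences in change of Mcm7 (0.0338) and Hmgb2 (0.0171) at 14 d with high-gene TMM.

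In none of the 6 pairs of groups was every correlation between same-numbered samples over 0.1, so the numbers were not taken to pair samples. Control and 14 d monocytes came nearest, at 0.326, 0.184, 0.0892 and 0.521 for replicates 1 to 4, with a mean of 0.28 against -0.0929 for different numbers. With the replicate block, macrophages at 14 d had 12 higher and 8 lower, monocytes at 3 d 6 and 3 and at 14 d 0 and 2, and the differences between cell types 6 and 8 genes at 3 d and 14 d. Depth was lowest in the 14 d macrophages (4610720 to 6838893 counts), where the median SE of a change from control was 0.258, against 0.255 at 3 d.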
